A study of Mus musculus with 9 samples.

Results

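The Notch genes described here were 10 rows of a table of 54532 mouse genes, chosen by name: the receptors Notch1, Notch2 and Notch3, the ligands Jag1, Jag2 and Dll1, and the target genes Hes1, Hes5, Hey1 and Hey2. RNA-seq read counts were available for lambdoidal junction tissue, the region where the facial prominences meet to form the upper lip and primary palate, from C57BL/6J mouse embryos at embryonic days (E) 10.5, 11.5 and 12.5. Each stage had 3 libraries, each made from a pool of embryos with no treatment, so the spread between libraries is that between pools, and each tissue piece mixed mesenchyme, epithelium, neural and blood vessel cells in unknown shares. The 9 libraries held 16581009 to 20836804 counts.

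Notch receptors are surface proteins that are cut when a ligand on a neighboring cell binds them, and the freed intracellular part joins the DNA-binding protein Rbpj in the nucleus to switch on target genes. The Hes and Hey genes are such targets and encode repressors of transcription, Hes5 and Hes1 being best known from neural progenitors and Hey1 and Hey2 from the heart and vessels. In the developing face the pathway is known above all through Jag2, whose loss in mice leads to cleft palate.

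All 10 genes had enough counts to be tested in every comparison. A gene was called a differentially expressed gene (DEG) where the quasi-likelihood test of edgeR gave a p, after Benjamini-Hochberg adjustment over all genes, of at most 0.05 and the change was at least 2-fold. In E11.5 vs. E10.5, 3 of the 10 were DEGs (Hey2 upregulated, Dll1 and Hes5 downregulated), beside 6.07% of the 15708 genes tested, 3.46% upregulated and 2.61% downregulated. For E12.5 vs. E11.5, 2 of the 10 were upregulated (Jag1 and Hey2) and 0 were downregulated, beside 5.10% of 15808 genes in either direction, 4.14% upregulated and 0.962% downregulated; without E12.5 replicate 1 only Jag1 was called. Over the whole period, E12.5 vs. E10.5, 4 of the 10 were DEGs, with Jag1 and Hey2 upregulated and Dll1 and Hes5 downregulated, beside 15.0% of 15899 genes, 9.97% upregulated and 5.08% downregulated. By the adjusted p alone, 4, 2 and 6 of the 10 passed in these comparisons in turn, beside 11.8%, 12.2% and 24.6% of all genes. No receptor was a DEG in any of the 3 comparisons. The comparisons share libraries, so their values are given side by side and are not independent.

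The median log2 fold change of the 10 genes was −0.20, 0.10 and −0.19 in the same order, and that of every gene tested −0.03, 0.02 and −0.01. The libraries of the later stage lay wholly above or below those of the earlier stage for 9, 3 and 7 of the 10 genes, beside 36.6%, 35.3% and 42.4% of all genes. Of these 9 genes in the first interval, Notch3 being the exception, 5 did not pass the adjusted p. Notch1 passed it, at 0.0497, but stayed below 2-fold.

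**Figure D1:**
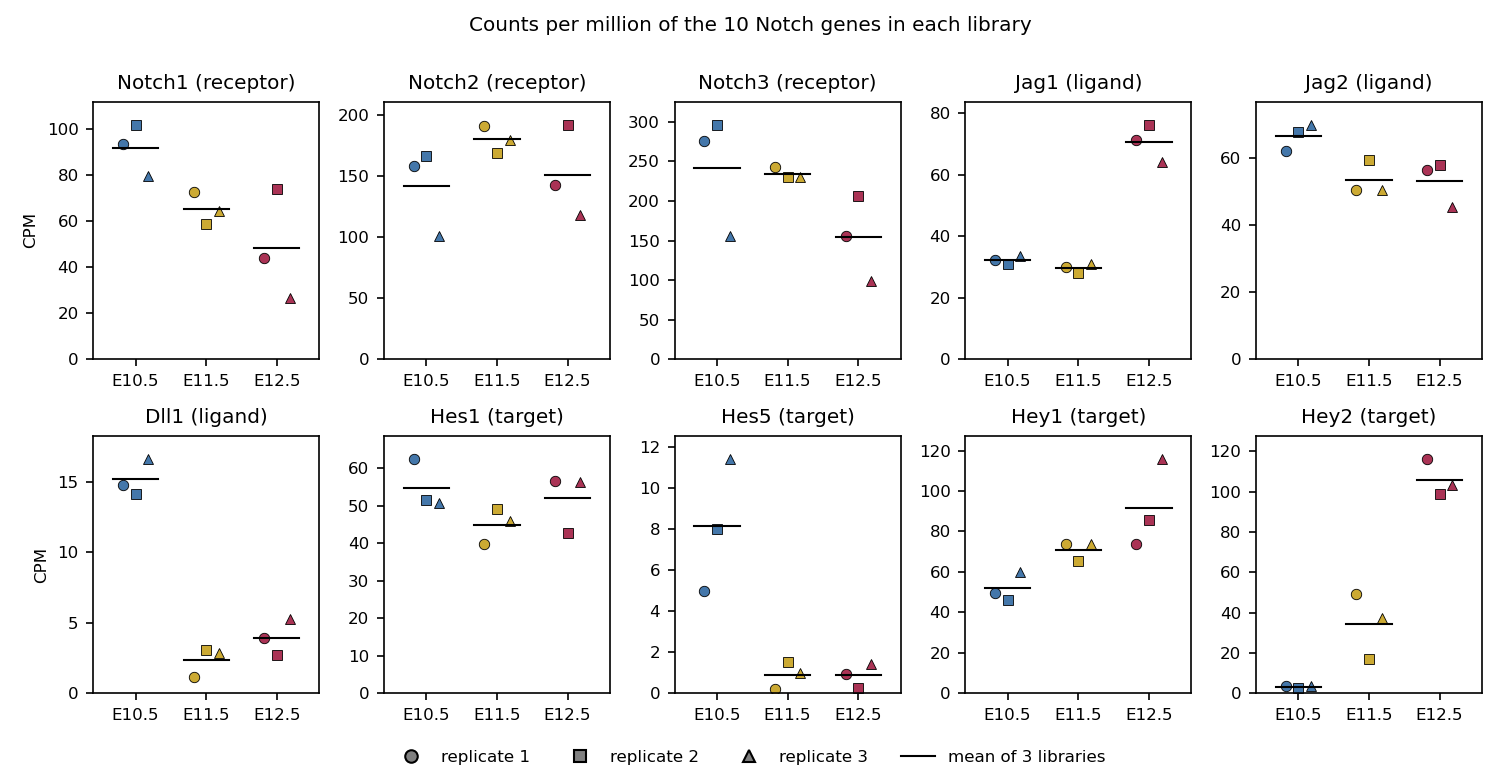
CPM, the counts scaled by library size (vertical axis, from 0, with its own range for each gene), of the 10 Notch genes in the 9 libraries by stage (horizontal axis), with symbols for replicates and a line at each stage mean. Dll1 and Hes5 sit high only in the E10.5 libraries, Jag1 only in the E12.5 libraries, and Hey2 libraries step up from 2.61–3.90 to 98.8–116 CPM.

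Among the 3 receptors, Notch3 had the highest level per length at all 3 stages. Levels between genes are compared as reads per kilobase (RPKM), that is CPM divided by the gene length in kilobases that the table gives. The mean level of Notch3 was 30.1 ± 9.44, 29.1 ± 0.914 and 19.1 ± 6.75 RPKM (SD, n = 3) at the 3 stages in order. Notch2 had 13.2 ± 3.30, 16.7 ± 1.03 and 14.0 ± 3.47 RPKM, and Notch1 had 6.45 ± 0.786, 4.60 ± 0.50 and 3.39 ± 1.69 RPKM. In all 9 libraries the order was Notch3 above Notch2 above Notch1. As shares of the RPKM of these 3 receptors, Notch3 held 60.0%, 57.8% and 52.0%, Notch2 held 26.6%, 33.1% and 39.1%, and Notch1 held 13.4%, 9.10% and 8.92% at the 3 stages.

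Notch1 (ENSMUSG00000026923, GRCm38 chromosome 2, 26457903 to 26516663, minus strand), a receptor with broad roles in the embryo, had 93.5, 102 and 79.8 CPM at E10.5, 72.9, 58.8 and 64.7 CPM at E11.5 and 44.0, 74.0 and 26.6 CPM at E12.5. Every E11.5 library was below every E10.5 library, and the E12.5 libraries spread over a wider range than the other stages and overlapped those of E11.5. The log2 fold change was −0.48 (SE 0.13, adjusted p = 0.0497, edgeR) in E11.5 vs. E10.5, −0.44 (SE 0.28, adjusted p = 0.319) in E12.5 vs. E11.5 and −0.92 (SE 0.30, adjusted p = 0.0481) in E12.5 vs. E10.5. The last value passed 2-fold without E10.5 replicate 3 (−1.01, adjusted p = 0.0380) or without E12.5 replicate 2 (−1.37, adjusted p = 0.00757), and without E12.5 replicate 3 it was −0.63 (adjusted p = 0.118). Those 2 E12.5 libraries were also set apart by gene length: the rank correlation across genes between a gene's deviation from the stage mean and its length was 0.523 in replicate 2 and −0.411 in replicate 3, and the 14232 bases of Notch1 make it the longest of the 10 genes. With the length trend removed, the value was −0.54 (adjusted p = 0.0277) in the first interval, −0.29 (adjusted p = 0.308) in the second and −0.83 (adjusted p = 0.0220) over the whole period. In the fits that left out 1 library, the adjusted p of the first interval passed in 1 of 6, that without E10.5 replicate 3. It ran up to 0.198 in the others, and that of the whole period passed in 2 of 6. Without E10.5 replicate 3, 6447 of 16263 genes passed the adjusted p in the first interval, against 1849 of 15708 with all 6 libraries.

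Notch2 (ENSMUSG00000027878, chromosome 3, 98013527 to 98150361, plus strand), mutated with JAG1 in Alagille syndrome, had 158, 167 and 101 CPM at E10.5, 192, 169 and 180 CPM at E11.5 and 142, 192 and 119 CPM at E12.5. E10.5 replicate 3 and E12.5 replicate 3 were the lowest libraries, and the E12.5 values overlapped those of both other stages. None of the comparisons passed the test, with log2 fold changes of 0.35 (SE 0.18, adjusted p = 0.256) in E11.5 vs. E10.5, −0.26 (SE 0.17, adjusted p = 0.324) in E12.5 vs. E11.5 and 0.10 (SE 0.24, adjusted p = 0.802) in E12.5 vs. E10.5.

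Notch3 (ENSMUSG00000038146, chromosome 17, 32120820 to 32166880, minus strand), best known from the mural cells that wrap small vessels, had 275, 296 and 155 CPM at E10.5, 243, 230 and 231 CPM at E11.5 and 156, 207 and 98.5 CPM at E12.5. The E10.5 libraries did not stay together: replicate 3 lay far below the other pair, which were above all E11.5 libraries. The E12.5 libraries were all below those of E11.5. Its log2 fold change was −0.04 (SE 0.22, adjusted p = 0.920) in E11.5 vs. E10.5, and 0.0493 (adjusted p = 0.775) with the trend with GC content removed. Without E10.5 replicate 3 it was −0.28 (SE 0.06, adjusted p = 0.00433), a change below 2-fold. Of the 6 fits that left out 1 library, only this 1 passed, and in it 6447 of 16263 genes passed the adjusted p. With all 6 libraries 1849 of 15708 genes did. In E12.5 vs. E11.5 the log2 fold change of Notch3 was −0.61 (SE 0.22, adjusted p = 0.0882), and with the length trend removed −0.50 (adjusted p = 0.0493). In E12.5 vs. E10.5 it was −0.64 (SE 0.30, adjusted p = 0.138), and −0.88 (adjusted p = 0.0257) without E10.5 replicate 3, the only 1 of 6 such fits that passed.

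E10.5 replicate 3 was also low in markers of several cell types, so the receptors are set beside them. The 6 facial mesenchyme markers summed to 911 CPM in that library and to 1462 and 1427 CPM in the other E10.5 libraries. The 5 markers listed for skeletal muscle precursors summed to 40.1 against 74.1 and 73.9 CPM. Nearly all of that sum was Pax7 (39.7 against 73.4 and 72.1 CPM), with Myf5, Myod1, Myog and Msc near 0, so it describes Pax7 rather than muscle precursors. The 8 endothelium markers summed to 129 CPM in that library and to 341–356 CPM in the other E10.5 libraries, with 335–342 CPM at E11.5 and 298–355 CPM at E12.5. Of these 8, Emcn alone was not lower in that library (27.85 against 27.83 and 24.06 CPM). The 5 mural cell markers summed to 60.4 CPM there, against 177 and 189 CPM in the others of that stage, 227–239 CPM at E11.5 and 153–246 CPM at E12.5, where replicate 3 was again the lowest. None of the 8 endothelium markers was a DEG in any comparison. Of the mural cell markers, 4 of 5 were tested, and they did not move together. Cspg4 was upregulated in E11.5 vs. E10.5 (1.42, adjusted p = 0.0268) and in E12.5 vs. E11.5 (1.01, adjusted p = 0.00418). The first call was lost without E10.5 replicate 1 or without any 1 E11.5 library. The second was lost without E11.5 replicate 2 or E12.5 replicate 1. It was also lost in DESeq2, with DESeq2 size factors, with GC correction and with all genes of at least 1 count. Cspg4 and Rgs5 were upregulated over the whole period, and Notch3 was not called in any of these comparisons. Abcc9 was lower at E12.5 (3.32, 6.14 and 4.35 CPM) than at E11.5 (8.82, 8.84 and 8.32 CPM). Pdgfrb made up most of the mural cell sum, 54.0 of the 60.4 CPM in E10.5 replicate 3. Notch4, an endothelial receptor, had 23.2, 23.1 and 6.50 CPM at E10.5, 19.4, 19.1 and 20.2 CPM at E11.5 and 16.2, 20.3 and 19.1 CPM at E12.5. Dll4, the ligand of endothelial tip cells, had 6.29, 6.73 and 2.35 CPM at E10.5, 5.16, 5.62 and 7.58 CPM at E11.5 and 10.7, 8.29 and 9.59 CPM at E12.5. Notch2, Notch3, Notch4 and Dll4 were thus all lowest of their stage in E10.5 replicate 3. The same library was high in the 6 epithelium markers (694 against 382 and 435 CPM) and differed from the other pair in its trend with GC content (rank correlation across genes −0.546 against 0.438 and 0.469). The part of cell makeup and of GC content in the receptor values was not tested, and in bulk tissue fewer cells of a type cannot be told apart from less RNA per cell.

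**Figure D2:**
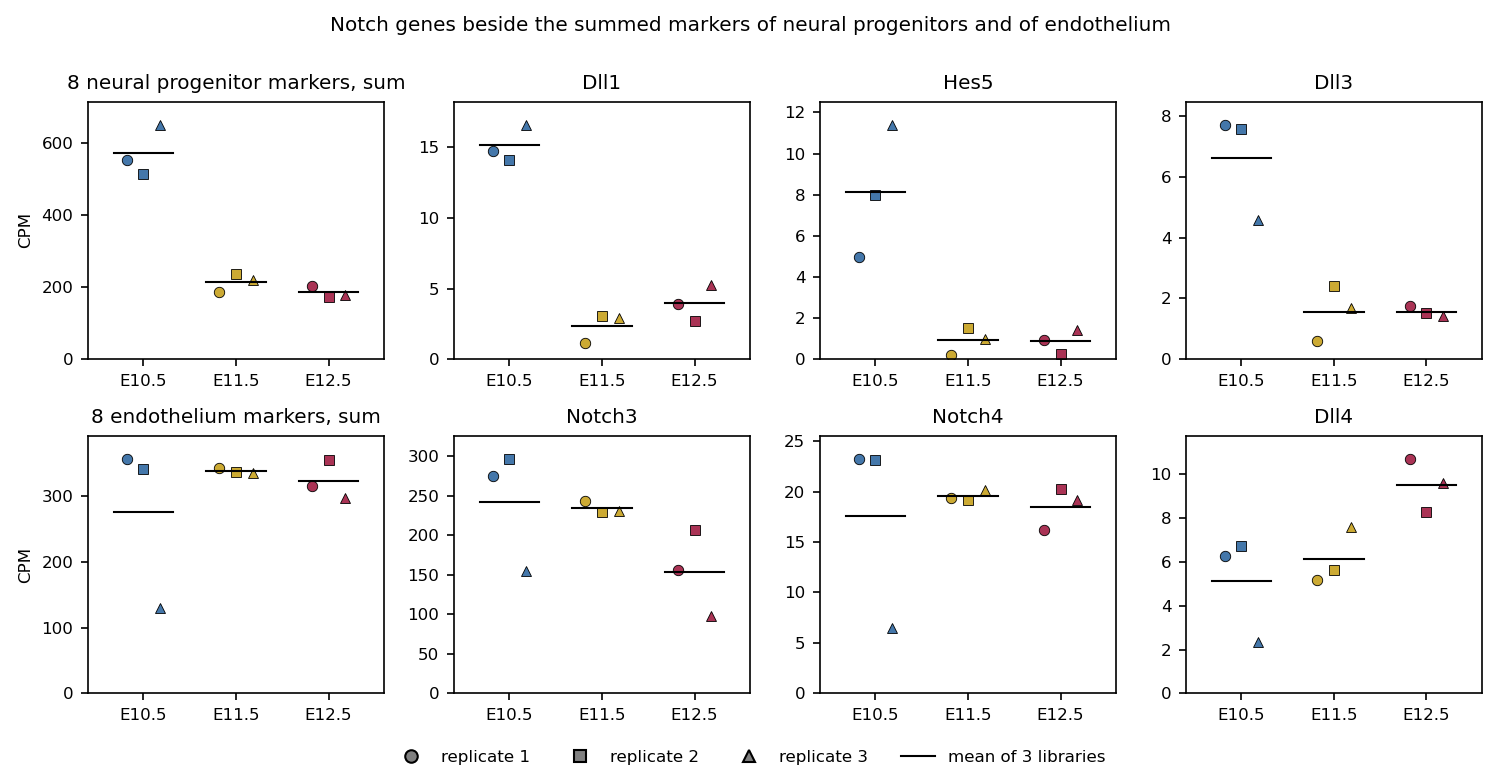
CPM (vertical axis, from 0) in the 9 libraries by stage (horizontal axis), with symbols for replicates and a line at each stage mean, for summed neural progenitor markers, Dll1, Hes5 and Dll3 (top) and summed endothelium markers, Notch3, Notch4 and Dll4 (bottom). In the top row every E10.5 library is above every later library, and in the bottom row E10.5 replicate 3 is far below the other E10.5 libraries.

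Of the ligands, Dll1 fell from E10.5 to E11.5, to a level still detected in every library, and Jag1 rose from E11.5 to E12.5. Per length, Jag2 was the most abundant ligand at E10.5 and E11.5 (9.56 ± 0.569 and 7.68 ± 0.743 RPKM, SD, n = 3), and Jag1 at E12.5 (12.1 ± 1.04 RPKM). Of the RPKM of the 3 ligands, Jag1 held 29.6%, 38.3% and 58.5%, Jag2 held 51.2%, 57.6% and 36.9%, and Dll1 held 19.2%, 4.19% and 4.64% at the 3 stages.

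Jag1 (ENSMUSG00000027276, chromosome 2, 137081456 to 137116644, minus strand), a ligand with roles in vessel, ear and bone development, had 32.3, 31.0 and 33.4 CPM at E10.5, 30.0, 28.0 and 30.8 CPM at E11.5 and 71.4, 76.1 and 64.0 CPM at E12.5. The libraries of a stage lay close together, and each E12.5 library was above 2 times the level of any E11.5 library. Its log2 fold change was −0.12 (SE 0.11, adjusted p = 0.514) in E11.5 vs. E10.5, 1.25 (SE 0.12, adjusted p = 2.08e-04, 2.37-fold) in E12.5 vs. E11.5 and 1.14 (SE 0.17, adjusted p = 6.94e-04) in E12.5 vs. E10.5. Both calls held without any single library, with adjusted p up to 0.00415 and 0.00644.

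Jag2 (ENSMUSG00000002799, chromosome 12, 112907819 to 112929776, minus strand), the ligand whose loss leads to cleft palate, had 62.2, 67.7 and 69.9 CPM at E10.5, 50.4, 59.4 and 50.6 CPM at E11.5 and 56.5, 57.9 and 45.4 CPM at E12.5. All later libraries were below those of E10.5, and those of E11.5 and E12.5 overlapped. Its log2 fold changes were −0.31 (SE 0.11, adjusted p = 0.113) in E11.5 vs. E10.5, −0.01 (SE 0.14, adjusted p = 0.968) in E12.5 vs. E11.5 and −0.31 (SE 0.17, adjusted p = 0.212) in E12.5 vs. E10.5, none past the test. Within each library, the ratio of Jag1 to Jag2 RPKM was 0.547–0.622 at E10.5, 0.563–0.728 a day later and 1.51–1.69 at E12.5. All E12.5 libraries had more Jag1 than Jag2 and all others had less, and a ratio set between 3 and 3 libraries allows no two-sided exact permutation p below 0.1.

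Dll1 (ENSMUSG00000014773, chromosome 17, 15367354 to 15376872, minus strand), a ligand of neural progenitors and somites, had 14.8, 14.1 and 16.6 CPM at E10.5, 1.18, 3.08 and 2.89 CPM at E11.5 and 3.94, 2.69 and 5.24 CPM at E12.5. The E10.5 libraries held 243–268 counts and the E11.5 libraries 22–64, with replicate 1 the lowest, and the E12.5 libraries overlapped those of E11.5. The log2 fold change was −2.66 (SE 0.32, adjusted p = 0.00270, 6.30-fold lower) in E11.5 vs. E10.5 and −1.93 (SE 0.27, adjusted p = 5.50e-04) in E12.5 vs. E10.5, and 0.71 (SE 0.36, adjusted p = 0.213) in E12.5 vs. E11.5. Both calls held without any single library. Antisense to Dll1 lies A930024N18Rik, which shares 20.6% of its exon sequence and had 0–5 counts in a library.

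The change from E11.5 to E12.5 was also set against the change from E10.5 to E11.5, as the difference of the log2 fold changes in a fit of all 9 libraries. This difference passed the test for 2 of the 10 genes, Jag1 and Dll1, beside 1.18% of the 16375 genes tested. It was 1.38 (SE 0.23, adjusted p = 0.0170, edgeR) for Jag1 and 3.38 (SE 0.60, adjusted p = 0.0226) for Dll1. Without any 1 of the 3 E11.5 libraries, or without E12.5 replicate 1, neither passed (adjusted p 0.0547–0.139 for Jag1 and 0.0517–0.0946 for Dll1), while the differences stayed at 1.30–1.44 and 2.75–3.84. Of all genes, 194 passed in the full fit. In those fits 31, 59 and 27 passed without E11.5 replicate 1, 2 or 3, and 49 without E12.5 replicate 1.

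**Figure D3:**
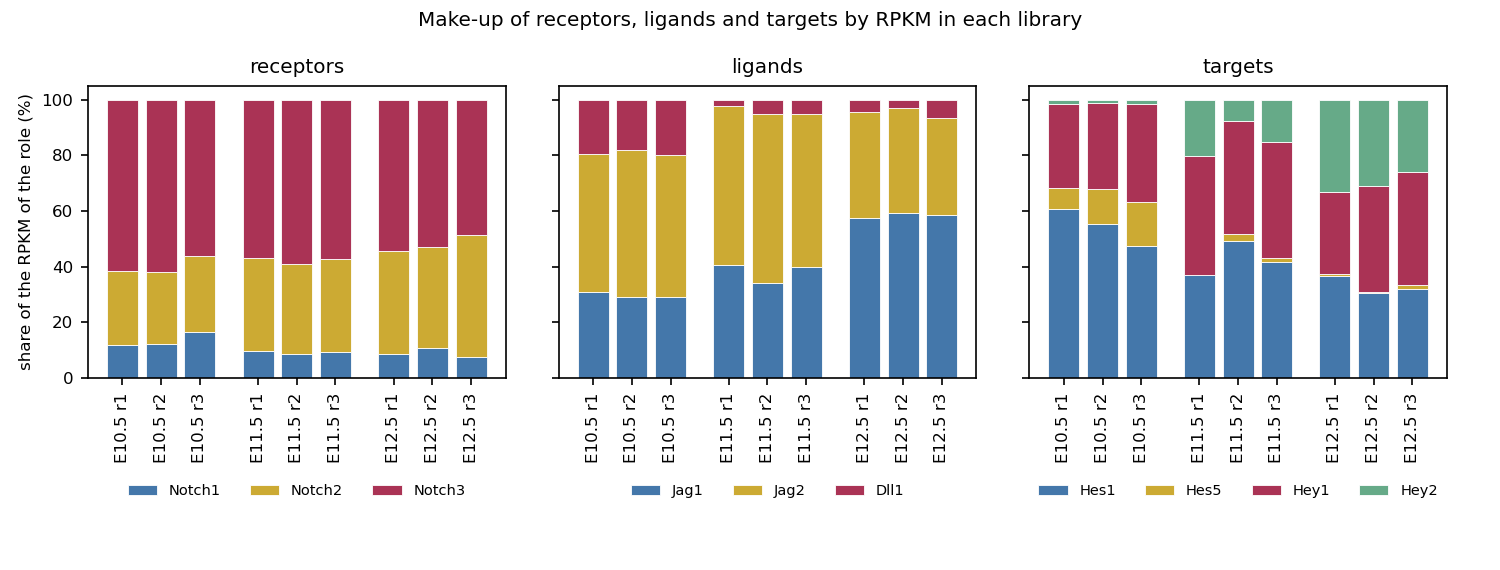
Share (%, vertical axis) of each gene in the summed RPKM of the receptors, ligands and targets, as stacked bars for the 9 libraries (horizontal axis, r for replicate). Dll1 shrinks from 19.2% of the ligands at E10.5 to 4.19% at E11.5, Jag1 reaches 58.5% at E12.5, and Hey2 grows from 1.49% to 30.0% of the targets as Hes5 falls from 12% to 0.805%.

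Among the targets, Hey2 rose and Hes5 fell, while Hey1 passed the adjusted p below 2-fold over the whole period and Hes1 passed no test. Promoter sequence (RefSeq, GRCm38.p6) was at hand for 8 of the 10 genes, Hes1 and Hey1 being without an entry. The 250 bases before the transcription start were searched for GTGGGAA, the core of a high-affinity binding site of Rbpj, on both strands (TTCCCAC on the other); the motif was chosen with these sequences in view. Hes5 and Hey2, the only targets with an entry, each held 2 matches, 1 in each orientation. The 6 other genes, all receptors or ligands, held none. Targets that changed and targets that did not can therefore not be compared. Of 32851 promoters, 5.52% held at least 1 match and 0.174% at least 2. As the motif was chosen with the Hes5 and Hey2 sequences in view, these shares do not measure how unusual their matches are. Both sequences are shown 5′ to 3′ in the direction of transcription, with the matches in capitals. That of Hes5 is chr4:154960673-154960922, plus strand, with matches that begin 226 and 83 bases before the start. That of Hey2 is chr10:30842781-30843033, minus strand, with matches that begin 207 and 4 bases before the start, so that the latter runs 3 bases past it.
Hes5: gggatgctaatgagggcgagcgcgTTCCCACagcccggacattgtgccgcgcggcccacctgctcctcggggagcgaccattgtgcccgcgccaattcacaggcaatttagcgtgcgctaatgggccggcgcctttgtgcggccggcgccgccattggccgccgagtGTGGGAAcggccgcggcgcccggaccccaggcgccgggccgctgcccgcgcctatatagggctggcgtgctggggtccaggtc
Hey2: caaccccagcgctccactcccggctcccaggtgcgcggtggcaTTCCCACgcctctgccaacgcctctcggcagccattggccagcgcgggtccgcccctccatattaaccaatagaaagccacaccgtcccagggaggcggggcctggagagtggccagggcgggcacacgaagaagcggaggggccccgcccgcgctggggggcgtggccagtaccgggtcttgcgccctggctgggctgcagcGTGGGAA
Jag1 (chr2:137116521-137116770, minus strand), the ligand that rose at E12.5, is shown as a promoter without a match.
Jag1: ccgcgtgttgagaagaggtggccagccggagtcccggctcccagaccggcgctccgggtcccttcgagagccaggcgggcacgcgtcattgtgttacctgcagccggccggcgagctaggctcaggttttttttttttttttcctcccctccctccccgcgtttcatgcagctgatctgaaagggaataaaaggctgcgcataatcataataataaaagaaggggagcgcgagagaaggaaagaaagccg
The Hes5 and Hey2 stretches each had a GC content of 71.6%, against 57.2% for Jag1. A match is a run of letters and not a measured site, and the absence of one says only that these letters are not in the window.

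Hes5 (ENSMUSG00000048001, chromosome 4, 154960923 to 154962371, plus strand), a repressor that keeps neural progenitors from differentiating, had 4.98, 8.0 and 11.4 CPM at E10.5, 0.215, 1.54 and 1.00 CPM at E11.5 and 0.957, 0.269 and 1.43 CPM at E12.5. Counts were 84–184 at E10.5 and 4–32 and 5–24 at the later stages, which overlapped each other and stayed below all E10.5 libraries. The log2 fold change was −3.12 (SE 0.55, adjusted p = 0.0111, 8.67-fold lower) in E11.5 vs. E10.5, −0.09 (SE 0.65, adjusted p = 0.941) in E12.5 vs. E11.5 and −3.19 (SE 0.50, adjusted p = 0.00102) in E12.5 vs. E10.5. The first call was lost without E11.5 replicate 3 (−3.17, adjusted p = 0.0633). The antisense Gm20421 shares 31.8% of the Hes5 exon sequence; it had 0 counts in 7 libraries, 2 in E10.5 replicate 2 and 9 in E11.5 replicate 2, the library with the most Hes5 counts of its stage.

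Dll1 and Hes5 moved with the markers of neural progenitors. The 8 markers (Sox1, Sox2, Sox3, Pax6, Rax, Six3, Fabp7 and Nes) summed to 513–649 CPM at E10.5, 187–236 CPM at E11.5 and 174–204 CPM at E12.5, with none at 0 in every library. In E11.5 vs. E10.5, 7 of the 8 were downregulated, beside 2.61% of all genes, among them Sox1 (−6.22, adjusted p = 7.23e-04) and Sox3 (−3.16, adjusted p = 7.23e-04), and the median log2 fold change of the list was −1.73, against −0.03 over every gene. In E12.5 vs. E11.5, 0 of the 6 tested were DEGs, with 1 (Pax6, −0.75, adjusted p = 0.0227) past the adjusted p alone in edgeR. E11.5 replicate 1 was the lowest library of its stage for Dll1, Hes5, the marker sum and Sox1 (0.215 against 1.15 and 0.526 CPM). The E12.5 libraries did not keep this order, Sox1 being highest in replicate 1 and Dll1 and Hes5 in replicate 3. The 6 markers of differentiating neurons summed to 158–192, 178–201 and 273–311 CPM at the 3 stages, and Stmn2 was upregulated in both intervals (1.1, adjusted p = 0.0202, and 1.49, adjusted p = 4.33e-04) and Stmn3 downregulated in the first (−1.19, adjusted p = 0.0226) and upregulated in the second (1.04, adjusted p = 0.0121). The 2 neuron marker calls of the first interval fell to 1 or 0 with any 1 library left out, and to 0 without E11.5 replicate 1 or 3. The 2 of the second interval fell to 1 with GC or length correction, without E11.5 replicate 1 or 3 and without E12.5 replicate 1 or 3. The part of the neural tissue in each piece in the Dll1 and Hes5 values was not tested.

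Hes1 (ENSMUSG00000022528, chromosome 16, 30064384 to 30067796, plus strand), a repressor found in many progenitor cells, had 62.4, 51.4 and 50.7 CPM at E10.5, 39.8, 49.2 and 45.8 CPM at E11.5 and 56.7, 42.8 and 56.5 CPM at E12.5. The E11.5 libraries were all below those of E10.5, by a small step, and those of E12.5 spread across both. Its log2 fold changes were −0.28 (SE 0.13, adjusted p = 0.204), 0.20 (SE 0.15, adjusted p = 0.377) and −0.07 (SE 0.19, adjusted p = 0.824) for the first interval, the second and the whole period. Within a library, the ratio of Hes5 to Hes1 RPKM was 0.119–0.336 at E10.5, 0.00808–0.0467 a day later and 0.00940–0.0378 at E12.5.

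Hey1 (ENSMUSG00000040289, chromosome 3, 8663359 to 8667256, minus strand), a repressor known from vessels and cartilage, had 49.8, 45.9 and 60.1 CPM at E10.5, 73.9, 65.3 and 73.8 CPM at E11.5 and 73.8, 85.8 and 116 CPM at E12.5. All later libraries were above those of E10.5, and E12.5 replicate 1 lay at the level of E11.5. The log2 fold change was 0.45 (SE 0.13, adjusted p = 0.0601) in E11.5 vs. E10.5, 0.37 (SE 0.16, adjusted p = 0.163) in E12.5 vs. E11.5 and 0.83 (SE 0.21, adjusted p = 0.0142) in E12.5 vs. E10.5. The last passed the adjusted p and stayed below 2-fold, and the adjusted p ran up to 0.0617 in the 6 fits that left out 1 library, passing in 4 of them.

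Hey2 (ENSMUSG00000019789, chromosome 10, 30832359 to 30842801, minus strand), a close relative of Hey1 with a role in heart development, had 3.74, 2.61 and 3.90 CPM at E10.5, 49.3, 17.2 and 37.3 CPM at E11.5 and 116, 98.8 and 103 CPM at E12.5. The stages did not overlap, and the E11.5 libraries were the most spread, with replicate 2 lowest. Over the whole period its log2 fold change was 4.96 (SE 0.23, adjusted p = 5.89e-07, 31.2-fold), the sum of steps of 3.34 and 1.61 whose difference did not pass the test (−1.72, SE 0.50, adjusted p = 0.146). That difference passed without E11.5 replicate 2 (−2.37, adjusted p = 0.0125), in DESeq2 (−1.74, adjusted p = 0.0340) and in a fit of all genes with at least 1 count (adjusted p = 9.72e-06). Its call in the second interval needed E12.5 replicate 1, and the value without it missed the threshold (1.54, adjusted p = 0.0521).

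Per length, Hey2 went from the lowest of the 10 genes to the level of the most abundant ones. At E10.5 it had 0.744 ± 0.153 RPKM (SD, n = 3), below Dll1 (3.59 ± 0.306) with no overlap. At E12.5 the order began with Hey1 (28.1 ± 6.61 RPKM), Hes1 (25.5 ± 3.91), Hey2 (23.1 ± 1.96) and Notch3 (19.1 ± 6.75), in which each neighboring pair overlapped. The ratio of Hey2 to Hey1 RPKM within a library was 0.0404–0.0534 at E10.5, 0.187–0.475 a day later and 0.633–1.1 at E12.5. Of the RPKM of the 4 targets, Hes1 held 54.5%, 42.6% and 33.0%, Hey1 held 32.0%, 41.8% and 36.2%, Hey2 held 1.49%, 14.3% and 30.0%, and Hes5 held 12%, 1.32% and 0.805%. Their summed level was 49.5, 52.0 and 77.4 RPKM at the 3 stages.

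Hey2 was set beside the epithelium markers. Krt14, a keratin of the basal epithelium, had 13.4, 13.0 and 21.6 CPM at E10.5, 30.9, 26.3 and 36.6 CPM at E11.5 and 171, 117 and 184 CPM at E12.5. It was upregulated in E12.5 vs. E11.5 (2.33, adjusted p = 5.76e-05) and below 2-fold in E11.5 vs. E10.5 (0.97, adjusted p = 0.0312). Krt14 was the only one of the 6 epithelium markers called in E12.5 vs. E11.5, and the libraries of all the others overlapped between these stages. Krt8 went from 86.5–141 CPM at E10.5 to 53.6–67.3 CPM at E11.5 and 54.1–68.0 CPM at E12.5. Krt18 was downregulated in E11.5 vs. E10.5 (−1.03, adjusted p = 0.0213), a call lost without any 1 E11.5 library and with a replicate block. The 6 markers summed to 382–694, 358–386 and 485–569 CPM at the 3 stages, and the sum at E12.5 includes the high Krt14 values. The part of epithelial change in the Hey2 values was not tested.

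**Figure D4:**
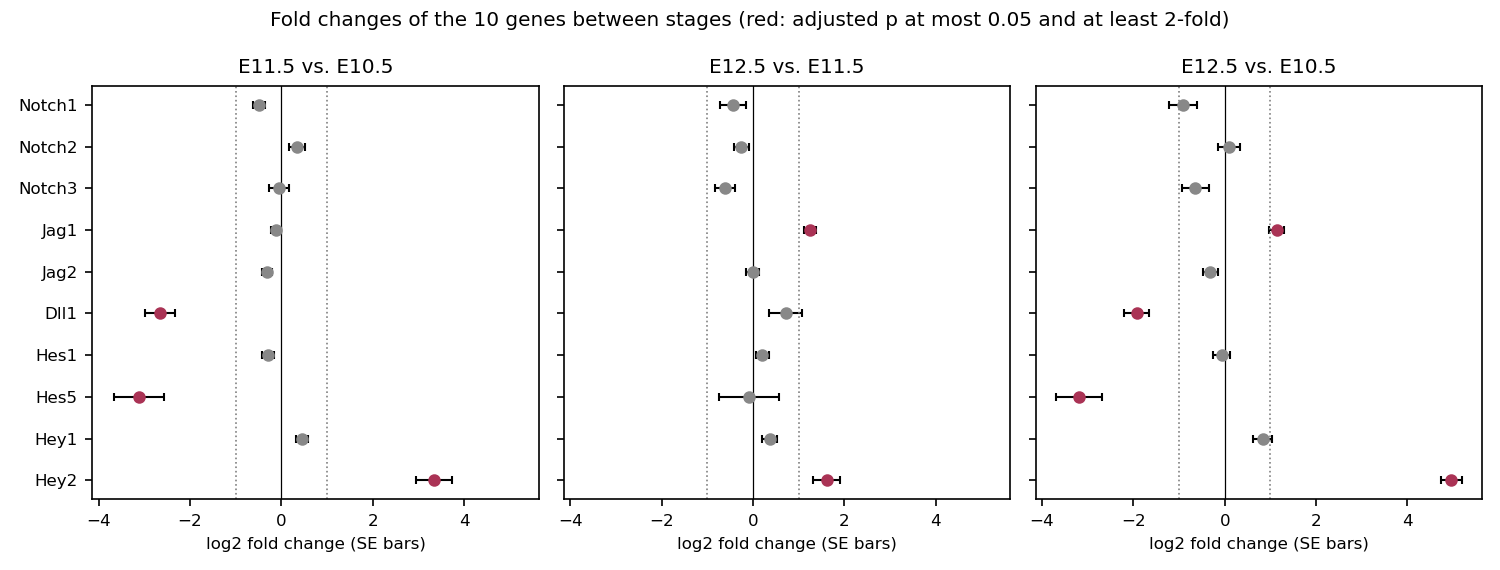
The log2 fold change (horizontal axis, bars for the SE) of the 10 genes (vertical axis) in the 3 comparisons of stages, with dotted lines at 2-fold and DEGs in red. Dll1 and Hes5 lie at −2.66 and −3.12 and Hey2 at 3.34 in E11.5 vs. E10.5, Jag1 (1.25) and Hey2 (1.61) are the DEGs of E12.5 vs. E11.5, and no receptor is red.

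The genes most like each of the 10 over the 9 libraries were taken by Pearson's correlation of log2 CPM among 13147 protein-coding genes. These points share stage, library and depth, so the values describe likeness only. Hey2 was closest to the semaphorin Sema4f (r = 0.995), the basal keratin Krt5 (0.994) and the adrenergic receptor Adra1b (0.993). Krt5 went from 2.12 to 34.5 and 151 CPM, on a path close to that of Hey2. Jag1 was closest to the kinase Camk1d (0.992), Cpne5 (0.986) and the tendon gene Tnmd (0.981), of which Tnmd was at 0 at E10.5 and had 9.09 CPM at E12.5. Dll1 was closest to Zmynd19 (0.982), Stoml2 (0.972) and Hhipl1 (0.969), and Hes5 to Stoml2 (0.984), Arhgef16 (0.974) and Bex1 (0.972), the pair sharing Stoml2. Dll1 and Hes5 themselves had r = 0.949, and Hey1 and Hey2 had r = 0.878. Notch3 was closest to Srebf2 (0.994), Ankrd11 (0.993) and Heg1 (0.991), and Notch1 to Ago3 (0.983) and Ubr2 (0.983), all lower at E12.5 than at E10.5. Notch2 was closest to Mbtps1 (0.983), Pcdhgb6 (0.982) and Kalrn (0.978), each highest at E11.5. Hey1 was closest to Tcta (0.98), Eid1 (0.979) and Smim10l1 (0.978), Jag2 to Vwa2 (0.959), Prox1 (0.933) and Art5 (0.931), and Hes1 to Tmem11 (0.955), Taf10 (0.943) and Rnaseh1 (0.936).

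Another 43 genes of the pathway, listed by their known roles, were taken from the same fits, and 40 had enough counts to be tested. Hes3 had 0 counts in all 9 libraries, and Hes2 and Hes7 were too low. In E11.5 vs. E10.5, 4 of the 40 were downregulated (Dll3, Dlk1, Dtx4 and Nrarp) and 1 upregulated (Neurl1b), beside 2.61% and 3.46% of all genes. For E12.5 vs. E11.5, 1 was upregulated (Dtx1) and 0 downregulated, beside 5.10% of all genes in either direction, with 4 past the adjusted p alone in edgeR, beside 12.2%. In E12.5 vs. E10.5, Dtx1 and Neurl1b were upregulated and Dll3, Dlk1 and Dtx4 downregulated, 5 of the 40 beside 15.0% of all genes. The median log2 fold change of the 40 was 0.09, −0.01 and 0.08, and that of all genes −0.03, 0.02 and −0.01. Of the receptor-cutting enzymes and gamma-secretase subunits, the fucose- and glucose-adding enzymes and the Rbpj and Mastermind nuclear complex, no gene was a DEG in any comparison. The count of 5 in E11.5 vs. E10.5 fell to 3 without E10.5 replicate 1 or 2 or without E11.5 replicate 1 or 3. The count of 1 in E12.5 vs. E11.5 became 2 without E11.5 replicate 1 or without E12.5 replicate 1 or 2, Dlk1 then passing 2-fold as downregulated.

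Dll3, a ligand that acts inside the cell and dampens signaling, followed Dll1, with 7.71, 7.59 and 4.58 CPM at E10.5, 0.591, 2.40 and 1.68 CPM at E11.5 and 1.75, 1.51 and 1.43 CPM at E12.5. Its later libraries all lay below those of E10.5, and its log2 fold change in E11.5 vs. E10.5 was −2.07 (adjusted p = 0.0222), a call that did not pass in 4 of the 6 fits without 1 library (without E10.5 replicate 1 or 2 or E11.5 replicate 1 or 3, adjusted p 0.0535–0.0987). Unlike Hes5 and Dll1, Dll3 was lowest at E10.5 in replicate 3. Dlk1, a ligand-like protein of growing embryonic tissue, had 430–498 CPM at E10.5, 112–151 CPM at E11.5 and 61.2–71.8 CPM at E12.5. It fell by 1.78 on the log2 scale in E11.5 vs. E10.5 (adjusted p = 0.00100) and by 2.75 in E12.5 vs. E10.5 (adjusted p = 3.11e-06), both without exception when 1 library was left out.

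Nrarp, a Notch target that limits the pathway, had 14.9, 16.1 and 14.1 CPM at E10.5, 4.25, 6.39 and 6.79 CPM at E11.5 and 9.96, 9.96 and 6.73 CPM at E12.5. The E11.5 libraries were all below those of E10.5 and overlapped those of E12.5. Its log2 fold change was −1.37 (adjusted p = 0.00604) in E11.5 vs. E10.5 and 0.61 (adjusted p = 0.109) in E12.5 vs. E11.5. Lfng, which adds sugar to Notch and shifts its response between Delta and Jagged ligands, had 13.8, 17.0 and 17.4 CPM at E10.5, 8.98, 10.9 and 9.95 CPM at E11.5 and 17.1, 18.5 and 18.9 CPM at E12.5. Each E11.5 library was below all libraries of the other stages, with changes below 2-fold on both sides (−0.69, adjusted p = 0.0294, and 0.86, adjusted p = 0.00382). The difference of the 2 intervals passed for Nrarp (1.98, adjusted p = 0.0346) and Lfng (1.56, adjusted p = 0.0279) and for no other of the 40. In the 9 fits that left out 1 library it passed in 4 for each, adjusted p running up to 0.237 and 0.222, and for Lfng it did not pass with the GC trend removed (adjusted p = 0.0788).

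Of the Deltex genes, whose proteins act on the Notch intracellular part, Dtx4 fell and Dtx1 rose, and Dtx2 and Dtx3 were not called in any comparison. Dtx4 had 61.7, 54.2 and 84.5 CPM at E10.5 and 15.8–26.0 CPM in the later libraries, a log2 fold change of −1.59 (adjusted p = 0.00278) in E11.5 vs. E10.5. Dtx1 had 3.03–4.21 CPM at E10.5, 4.46–6.0 CPM at E11.5 and 20.0, 15.1 and 14.8 CPM at E12.5, a log2 fold change of 1.69 (adjusted p = 3.53e-04) in E12.5 vs. E11.5. Neither gene overlapped between the stages on either side of its step, and both calls held without any single library. Neurl1b, which marks ligands for uptake, had 0.743–1.86 CPM at E10.5, 2.96–3.68 CPM at E11.5 and 4.90–5.12 CPM at E12.5. It was upregulated in E12.5 vs. E10.5 (1.88, adjusted p = 0.00299), a call that held in all 6 fits without 1 library, while that in E11.5 vs. E10.5 (1.26, adjusted p = 0.0489) was lost in all 6, without any 1 library of either stage (log2 fold changes 0.97–1.55, adjusted p 0.0143–0.186).

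**Figure D5:**
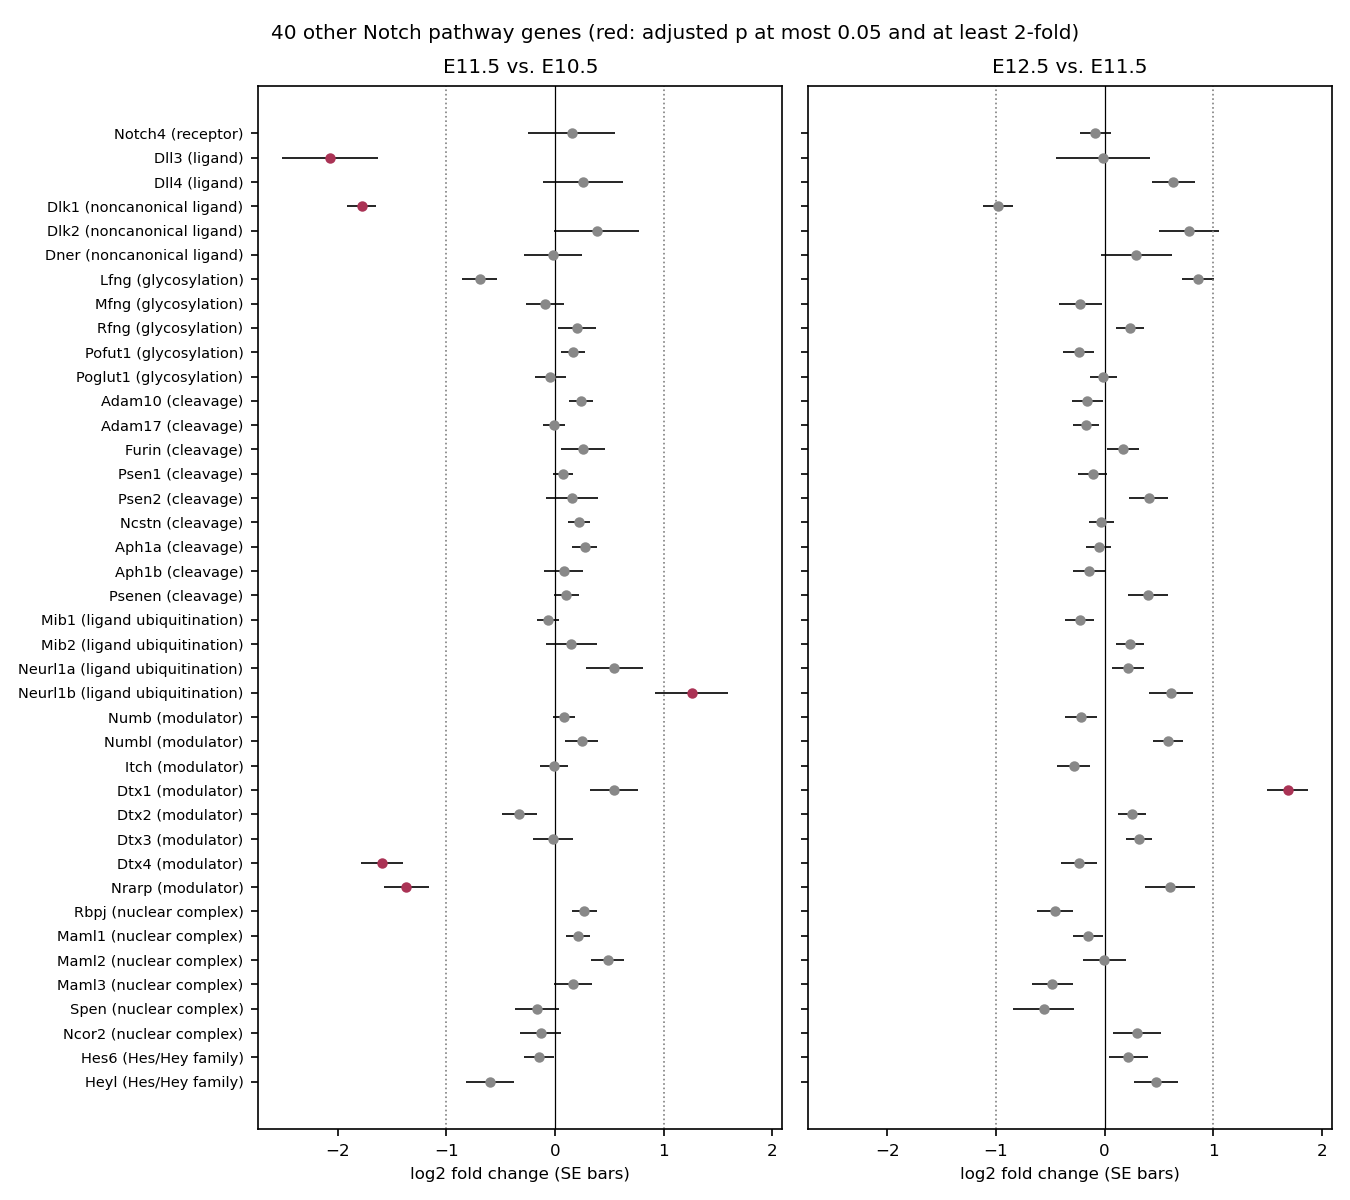
The log2 fold change (horizontal axis, bars for the SE) of the 40 other Notch pathway genes tested (vertical axis, with the role of each) in the first (left) and second (right) interval, with dotted lines at 2-fold and DEGs in red. Dll3, Dlk1, Dtx4 and Nrarp lie below −1 on the left, Dtx1 stands at 1.69 on the right, and most other genes lie close to 0.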

How the data were processed

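The authors prepared the libraries from total RNA with an Illumina TruSeq kit, aligned reads with HISAT2 2.0.5 (per the submitters' processing notes) to GRCm38 and counted them per gene with featureCounts. The deposited table holds whole-number counts for 9 libraries, used as deposited, and gene lengths. Its FPKM columns and the authors' own columns of fold changes and p-values were not used. The strand setting and the treatment of reads with several positions are not given in the sources used here.

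Genes were kept with filterByExpr, scaled by TMM and tested in edgeR 4.0.16 (quasi-likelihood, R 4.3.3) on the 6 libraries of each pair of stages, with Benjamini-Hochberg adjustment over all genes tested. CPM use TMM-scaled library totals, and folds come from the fit. The fit was tested on simulated data. All 10 genes are named; of the 43 other pathway genes, those called; and for each of the 10 the 3 most correlated protein-coding genes with a mean of at least 1 CPM. Some results under these rules are not reported here. Dll4, Notch4, Lfng and single markers were named after their values were seen. The genes, lists and tests were chosen with earlier results of these data known. Alternatives were DESeq2 1.42.0, other scalings, all genes with at least 1 count, all 9 libraries in 1 fit, GC correction, a replicate block, other thresholds and each library left out; a length correction was added after seeing the data. Identifiers were matched to GENCODE vM21 (54409 of 54532).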

Additional observations from a re-analysis of the deposited data

Results flagged for a closer look

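For 2 of the 10 genes the change from E11.5 to E12.5 differed from the change from E10.5 to E11.5 by a test of that difference over all 9 libraries (the quasi-likelihood test of edgeR, adjusted over all genes). For Jag1 the difference on the log2 scale was 1.38, with a rise in the later interval and none past the test in the earlier one. For Dll1 it was 3.38, from a fall in the earlier interval and a change that did not pass the test in the later one. Both intervals use the same E11.5 libraries, and leaving out any 1 of them ended both calls. Most calls among all genes were lost in these fits too, with 194 in the full fit and 31, 59 and 27 without E11.5 replicate 1, 2 or 3.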

How the results depend on the processing

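Same-numbered libraries had correlations of −0.151 to 0.220 between their deviations. In E12.5 vs. E10.5 these were 0.178, 0.07 and 0.220, against −0.219 to 0.153 for libraries of different number. In E12.5 vs. E11.5 they were −0.151 to 0.074, against −0.18 to 0.223. In E11.5 vs. E10.5 all were close to 0. Whether the numbers mark pairs was not tested. With a replicate block, Notch1 passed 2-fold in E12.5 vs. E10.5 (−1.03, adjusted p = 0.00646; −1.11 with the GC correction too), and Neurl1b was not called in E11.5 vs. E10.5 (1.30, adjusted p = 0.0816). Values near 0 changed sign. Notch3 in E11.5 vs. E10.5 was 0.0493 with GC correction, 0.0087 with the replicate block, 0.0564 with both and −0.28 to 0.12 with 1 library left out. Jag2 in E12.5 vs. E11.5 was 0.0931 with length correction, 0.0435 with upper quartile scaling and −0.0803 to 0.0819 with 1 library left out. The Notch1 difference of intervals was −0.0892 with GC correction, −0.0769 with the block, −0.17 with both and −0.39 to 0.34 with 1 library left out. With 1 library left out, Hes5 in E12.5 vs. E11.5 ran from −0.62 to 0.50, Notch2 and Hes1 in E12.5 vs. E10.5 from −0.12 to 0.24 and −0.139 to 0.0547, and the Hey1 difference of intervals from −0.284 to 0.0615.

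The 2 DEGs of the 10 genes in E12.5 vs. E11.5 were 1 to 2 with 1 library left out. The 2 differences of intervals were 4 with all genes of at least 1 count, 0 at an adjusted p of 0.01 and 0 to 2 with 1 library left out. The 5 other pathway DEGs in E11.5 vs. E10.5 were 3 at 0.01 and 3 to 4 with 1 library left out, and the 1 in E12.5 vs. E11.5 was 2 with GC correction, with all genes of at least 1 count or with block and GC correction, 4 with no fold threshold, and 1 to 2 with 1 library left out. The causes were not tested. Over the values of single genes, 754 of 819 alternatives kept direction and side of the threshold. That count includes genes not called in the main fit that stayed so, and it does not measure how stable the calls were. The low counts of Hes5 after E10.5 limit its values there.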
